A study of Mus musculus with 24 samples.

Results

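A set of 10 antiviral interferon-stimulated genes was followed through all libraries of the study: Ifit1, Ifit2, Ifit3, Ifit3b, Isg15, Mx1, Mx2, Rsad2, Oasl1 and Oasl2. They were chosen by name, with earlier results of these data known, as 10 of the 17696 genes in the count table. Every one was listed there and entered the tests. The 24 bulk RNA-seq libraries came from MIN6 cells, a mouse insulinoma line used as a model of the pancreatic β cell. The cells carried 1 of 3 stably integrated lentiviral constructs. Scr cells expressed a scrambled sequence, ZIP cells an antisense inhibitor of miR-146a-5p, and OE cells the microRNA itself. Each line was left untreated (Scr, ZIP, OE) or was exposed for 24 h to a cytokine mixture of IFNγ at 100 ng/mL, TNFα at 10 ng/mL and IL-1β at 5 ng/mL (Scr+Cy, ZIP+Cy, OE+Cy), with 4 libraries in each of the 6 groups. All 3 lines were puromycin-selected and are described by the authors as monoclonal, so a difference between lines cannot be told apart from a difference between clones. The Scr and ZIP vectors shared a backbone with a green reporter, whereas the OE vector was of another make with a red reporter. The labels number the replicates but do not say that they were separate cultures, so p-values measure the spread between these libraries, which may be technical.

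Interferons bind receptors that signal through Janus kinases to STAT and IRF transcription factors. Type I and type III interferons act mainly at the interferon-stimulated response element (ISRE), which a complex of STAT proteins with IRF9 binds, and IFNγ mainly at the gamma-activated site (GAS). Target genes include proteins that bind viral RNA (the Ifit family), a ubiquitin-like modifier (Isg15), an enzyme that makes a chain-terminating nucleotide (Rsad2, viperin), relatives of oligoadenylate synthetase (Oasl1, Oasl2) and dynamin-like GTPases (Mx1, Mx2). β cells in islets under immune attack are known to carry such a signature. The microRNA whose level the lines were built to alter is encoded on chromosome 11. It is shown here in its mature form with the seed, bases 2 to 8, in capitals.
mmu-miR-146a-5p: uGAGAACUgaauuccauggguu

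The members lie at 5 places in the mm10 genome. The 4 Ifit genes stand in 1 cluster on chromosome 19: Ifit2 at 34550694-34576534, Ifit3 at 34583529-34588982, Ifit3b at 34607957-34613401 and Ifit1 at 34640889-34650009. Oasl2 (114896934-114912245) and Oasl1 (114923240-114937911) are neighbours on chromosome 5. Mx1 (97447035-97462906) and Mx2 (97536081-97560901) share chromosome 16, and RefSeq lists both as transcribed pseudogenes in this assembly. Isg15 is on chromosome 4 at 156199424-156200818, and Rsad2 on chromosome 12 at 26442743-26456452. Ifit3 and Ifit3b, the Ifit family and the Mx pair are close relatives whose reads could have been divided between them, so their separate values are uncertain. Estimated reads were not whole for Ifit3 and Ifit3b (50.2 and 33.8 in Scr replicate 1). Those of Ifit1, Ifit2, Mx1 and Mx2 were whole in every untreated library. Some treated values of the Mx pair were not (259.7 for Mx1 and 117.3 for Mx2 in Scr+Cy replicate 1).

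RefSeq (GRCm38.p6) gave windows from 250 bases before to 50 after the start for 8 of the 10 members. Windows were searched on both strands for the ISRE core GAAANNGAAA, read as TTTCNNTTTC on the other strand, and for the GAS core TTCNNNGAA, which reads the same on both. The ISRE core was found in 5 of the 8 members with a window (Ifit1, Ifit3, Ifit3b, Isg15, Rsad2), against 3.44% of the 32851 windows in the table. Only Ifit2 held the GAS core, which 8.30% of all windows held, and a second Ifit2 window held neither core. The windows of Oasl1 and Oasl2 held neither core. Only exact cores inside the windows were searched, so elements elsewhere or with other letters were not looked for. With cytokines in the Scr line Oasl1 rose by 2.22 and Oasl2 by 6.88 on the log2 scale. The 5 genes with the ISRE core rose by between 4.87 (Rsad2) and 6.81 (Ifit1). Whether a match has a part in the response was not tested. The stretches that carry the ISRE core are shown. Each runs 5′ to 3′ along the gene, for 150 bases ending shortly before the start, with ISRE letters in capitals.
Isg15, chr4:156200869-156201018, - strand: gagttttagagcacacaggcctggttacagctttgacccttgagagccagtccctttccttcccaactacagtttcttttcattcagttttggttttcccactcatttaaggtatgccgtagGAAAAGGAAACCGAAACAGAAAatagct
Ifit1, chr19:34640689-34640838, + strand: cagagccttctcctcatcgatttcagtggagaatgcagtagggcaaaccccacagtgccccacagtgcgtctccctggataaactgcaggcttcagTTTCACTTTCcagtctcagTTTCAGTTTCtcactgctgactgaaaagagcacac
Ifit3, chr19:34583329-34583478, + strand: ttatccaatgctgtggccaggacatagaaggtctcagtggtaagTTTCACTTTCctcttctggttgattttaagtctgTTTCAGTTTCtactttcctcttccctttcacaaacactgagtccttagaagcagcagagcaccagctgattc
Ifit3b, chr19:34607757-34607906, + strand: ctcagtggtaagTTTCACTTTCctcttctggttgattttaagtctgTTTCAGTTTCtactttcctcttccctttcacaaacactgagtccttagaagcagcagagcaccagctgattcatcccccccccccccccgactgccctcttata
Rsad2, chr12:26456503-26456652, - strand: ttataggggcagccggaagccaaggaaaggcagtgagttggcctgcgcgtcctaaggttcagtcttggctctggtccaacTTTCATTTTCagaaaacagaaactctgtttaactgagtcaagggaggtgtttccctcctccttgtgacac
The Isg15 stretch held 3 matches that overlap one another, beginning at −78, −72 and −66 from the start. Ifit1 held 2, at −104 and −85. Ifit3 held TTTCACTTTC at −156 and TTTCAGTTTC at −122, and Ifit3b held the same letters at −188 and −154, within windows that share an identical run of 169 bases. The Rsad2 match lay at −120. A match is a description of these letters and not a measured site. The 3′ UTRs of all 10 members in GENCODE M21 were also searched for the 7 bases complementary to the miR-146a-5p seed, and Ifit2 alone held a match, while 10.8% of 15198 genes with an annotated 3′ UTR held at least 1.

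The libraries held between 26657792 and 37168232 reads assigned to genes. Values are reads of a gene scaled to a common library total (CPM) after TMM scaling, an adjustment for library composition. The β cell markers Ins1, Ins2, Iapp, Pdx1, Nkx6-1, Mafa, Slc2a2 and G6pc2 summed to between 18740 and 43370 CPM in every library. Single markers differed between lines. In OE+Cy the means of Ins1, Ins2, Iapp and Slc2a2 were above Scr+Cy, and those of Pdx1, Nkx6-1, Mafa and G6pc2 below. Ins1 averaged 4661 against 670.5 CPM, and Pdx1 337 against 768 CPM. Other islet hormone genes (Gcg, Sst, Ppy, Ghrl) had a median sum of 269 CPM in Scr, 52.4 in OE, 156 in Scr+Cy and 19.7 in OE+Cy. Leukocyte markers summed to at most 5.09 CPM in any library, with Adgre1, Itgax and Cd3e at 0 or not listed in all 6 groups. Fibroblast markers (Col1a1, Col1a2, Col3a1, Dcn, Pdgfra) summed to 54.8 CPM in the Scr+Cy library numbered 1, 44.4 CPM in ZIP library 1 and 17.1 CPM in Scr library 1, and to at most 7.88 CPM in the other libraries. Of 3 endothelial markers only Pecam1 was detected, at a mean of 0.0868 CPM in Scr, 0.699 in Scr+Cy and 2.34 in OE+Cy, with Cdh5 and Kdr at 0 or not listed. The part of what these markers show in the results was not tested. The untreated ZIP library numbered 4 stood apart for the members.

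All 10 members rose with cytokines in the control line. A gene was called when it changed by at least 1.5-fold with an unadjusted p under 0.05 in edgeR's quasi-likelihood test, and adjusted p is the Benjamini-Hochberg value over all 17696 genes. By this rule 7.88% of all genes were higher in Scr+Cy than in Scr. The median log2 fold change of the members was 5.01, against 0.0023 over all genes. In all 10 members every Scr+Cy library stood above every Scr library. The share of all genes for which this held was not counted.

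The plot of levels by library shows each member in each of the 24 libraries.

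**Figure D1:**
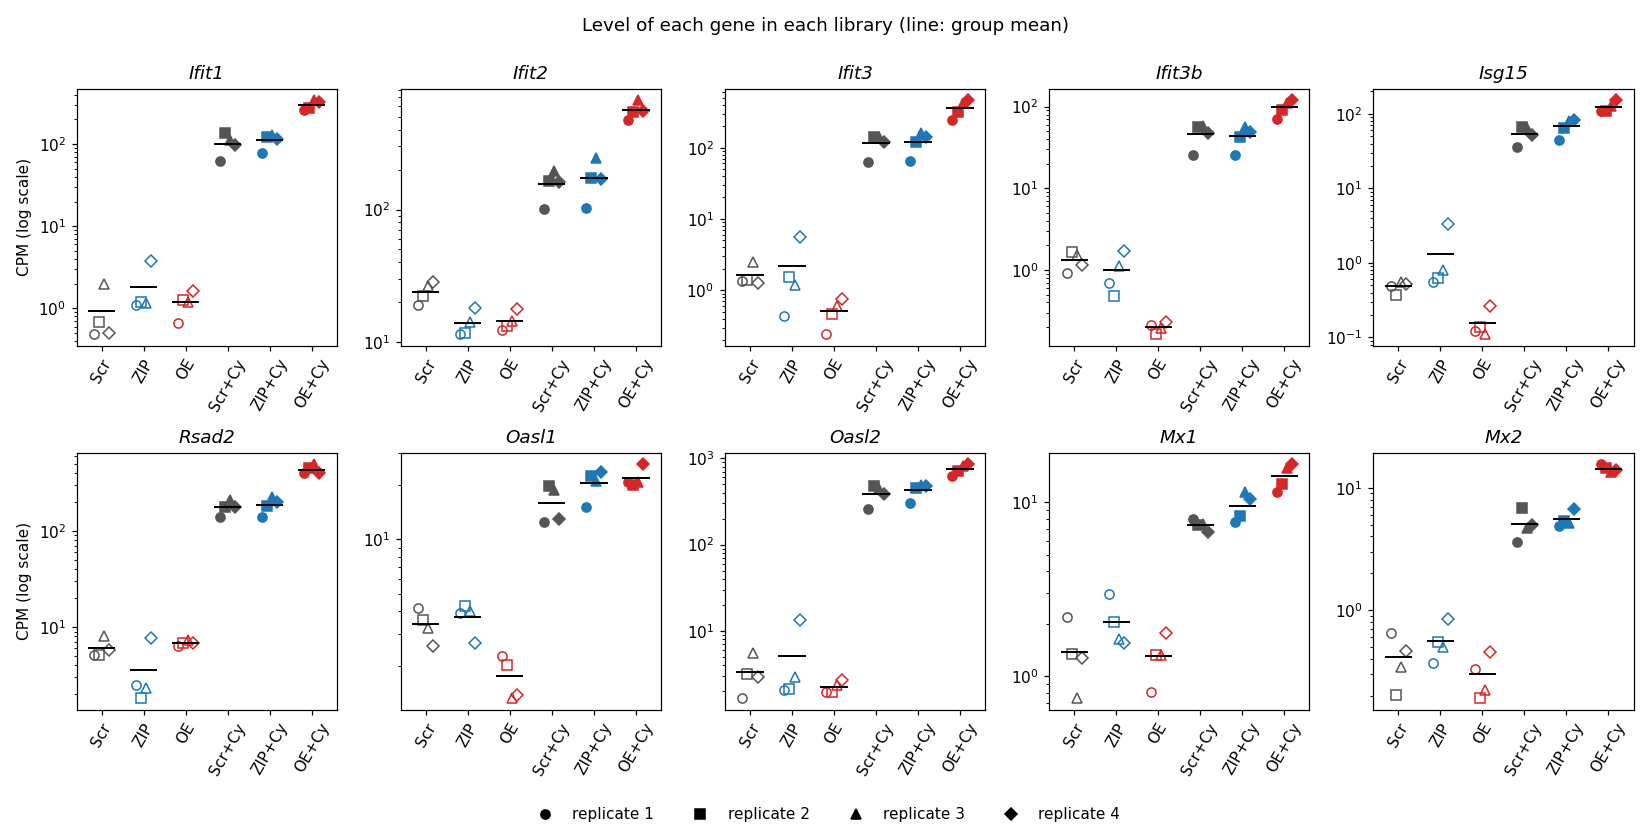
CPM of each member in each library on a log axis, by group; open symbols are untreated, filled symbols cytokine treated, symbol shape gives the replicate number and lines are group means (n = 4). Treated libraries stand above untreated ones in every panel, OE+Cy libraries are the highest in 9 panels, and the untreated ZIP library numbered 4 stands above the other ZIP libraries in 8 panels.

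Ifit1, whose protein binds RNA with an unmethylated cap, rose from near absence. It measured 0.486, 0.69, 2.00 and 0.495 CPM in the Scr libraries numbered 1 to 4, and 61.4, 135, 112 and 96.9 CPM in Scr+Cy. The mean rose from 0.918 ± 0.728 to 102 ± 30.9 CPM (SD, n = 4), a log2 fold change of 6.81 (SE 0.36, adjusted p = 2.83e-13 in edgeR). Ifit2, which had the highest untreated level per length of the members, started higher. Its Scr libraries held 19.2, 22.2, 26.6 and 28.3 CPM and its Scr+Cy libraries 100.2, 165, 193 and 160.5 CPM, a log2 fold change of 2.68 (SE 0.22). Ifit3 and Ifit3b rose by 6.17 and 5.15 on the log2 scale.

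Isg15, a ubiquitin-like protein that is conjugated to other proteins, gave 0.486, 0.374, 0.563 and 0.526 CPM in Scr, or 13 to 18 reads. In Scr+Cy it gave 35.8, 65.7, 64.9 and 51.3 CPM. Its log2 fold change was 6.80 (SE 0.37, adjusted p = 5.06e-13 in edgeR). Rsad2 (viperin) held between 5.10 and 8.13 CPM in Scr and between 140.3 and 209.9 CPM in Scr+Cy, and rose by 4.87 (SE 0.26).

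The Oasl pair diverged in size. Oasl2 gave 1.67, 3.19, 5.63 and 2.91 CPM in Scr and 259, 474, 440.0 and 386 CPM in Scr+Cy, a log2 fold change of 6.88 (SE 0.44). Oasl1 went from 3.39 ± 0.662 to 15.9 ± 3.79 CPM, a log2 fold change of 2.22 (SE 0.19). The GTPase genes rose less than most of the others: Mx1 by 2.40 (SE 0.24) and Mx2 by 3.57 (SE 0.26). Per kilobase of annotated exon, Isg15 was the highest member in Scr+Cy at 72.0 CPM per kb, followed by Ifit3 at 66.8 and Oasl2 at 61.2, and Mx2 was the lowest at 1.39.

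The same genes were then examined in the line that expressed the inhibitor. All 10 were higher in ZIP+Cy than in ZIP, where 7.28% of all genes were called higher, with a median log2 fold change of 5.54. Ifit1 rose by 5.92 (SE 0.33), Isg15 by 5.67 (SE 0.33), Oasl2 by 6.36 (SE 0.42) and Rsad2 by 5.70 (SE 0.28). These values moved with the untreated ZIP library numbered 4. Without it they were 6.57 for Ifit1, 6.67 for Isg15, 7.48 for Oasl2, 6.39 for Rsad2 and, from 5.79, 6.85 for Ifit3. The smallest changes were again those of Mx1 at 2.21 and Oasl1 at 2.46.

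The overexpressing line gave larger values. All 10 members were higher in OE+Cy than in OE, beside 13.0% of all genes, with a median log2 fold change of 6.99. Isg15 gave 0.121, 0.136, 0.11 and 0.262 CPM in OE, which is 4 to 8 reads, and 108, 110.1, 126 and 152 CPM in OE+Cy. Its log2 fold change was 9.62 (SE 0.43). Ifit3 rose by 9.45 (SE 0.52), Ifit3b by 8.92 (SE 0.40) and Oasl2 by 8.38 (SE 0.47). Oasl1 and Mx1 had the smallest changes here too, of 3.64 and 3.43.

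**Figure D2:**
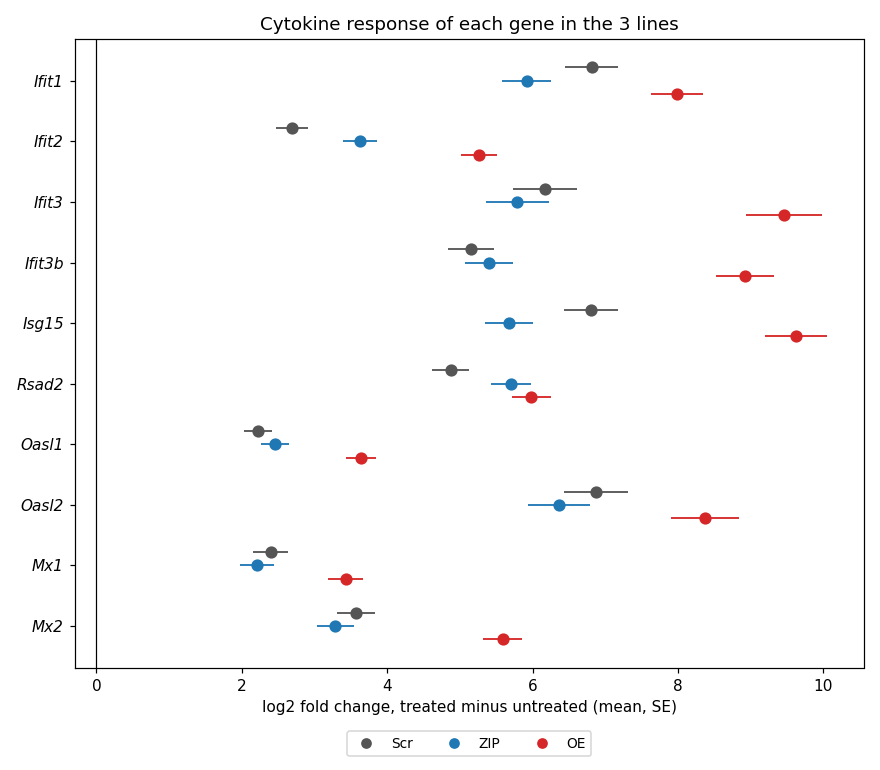
Log2 fold change of each member on cytokine treatment in the Scr, ZIP and OE lines, with bars of 1 SE from the edgeR fit (n = 4 libraries a group). All 30 points lie above 0, from 2.21 for Mx1 in ZIP to 9.62 for Isg15 in OE, and the OE point is the highest for each of the 10 members.

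Whether the treated lines differed from each other was tested next. ZIP+Cy and Scr+Cy could not be separated for any member: 0 of 10 were called in edgeR, beside 15.8% of all genes in either direction, and the libraries of both groups overlapped for all 10. DESeq2's Wald test also called 0. In edgeR, 1 member (Oasl1, adjusted p = 0.119) had an unadjusted p under 0.05, with a log2 fold change of 0.36 that is under 1.5-fold. The differences ran from −0.11 for Ifit3b to 0.36 for Oasl1. For Ifit1 the difference was 0.13 with a 95% interval of −0.33 to 0.59, and for Isg15 0.33 with an interval of −0.12 to 0.77, so changes of about that size in either direction were not resolved.

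OE+Cy stood above both. Against Scr+Cy, 9 of the 10 members were higher, beside 13.7% of all genes, and the median log2 fold change was 1.25. All 10 had every OE+Cy library above every Scr+Cy library, which held for 22.5% of all genes. The exception to the call was Oasl1, whose libraries held 12.5, 19.6, 18.8 and 12.9 CPM in Scr+Cy and 20.7, 19.9, 20.8 and 25.9 CPM in OE+Cy, a log2 fold change of 0.46 (SE 0.17, adjusted p = 0.0265 in edgeR) that is under 1.5-fold.

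Ifit2 showed the largest difference of the 10. It measured 474, 543, 666 and 549.6 CPM in OE+Cy against a highest Scr+Cy library of 193 CPM, a 3.60-fold difference (log2 1.85, SE 0.21, adjusted p = 5.74e-08 in edgeR). Ifit3 was 248, 321, 419 and 462 CPM in OE+Cy and 62.0, 143, 143 and 118 CPM in Scr+Cy, or 3.11-fold higher. Ifit1 reached 260.1, 277, 342 and 322 CPM, 2.96-fold above Scr+Cy. The 3 largest differences were thus all within the Ifit cluster, and the fourth Ifit gene, Ifit3b, was 2.10-fold higher.

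Mx2 differed by 2.86-fold, with 15.6, 14.5, 13.4 and 13.8 CPM in OE+Cy and at most 6.82 CPM in Scr+Cy. Rsad2 gave 399, 452, 495 and 400.2 CPM, 2.48-fold above Scr+Cy. Isg15 was 2.28-fold, Oasl2 1.93-fold and Mx1 1.91-fold higher. Among the 9 called members the standard error was largest relative to the difference for Oasl2 (log2 0.95, SE 0.32, adjusted p = 0.0158 in edgeR).

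Against ZIP+Cy, 8 of 10 were higher in OE+Cy, beside 14.7% of all genes. Mx1 was just under 1.5-fold (log2 0.58, SE 0.20), and Oasl1 did not separate (log2 0.09, 95% interval −0.24 to 0.42). The call for Oasl2 (0.81) was lost without ZIP+Cy library 1 (0.69). The order of group means was therefore the same at the top for 9 members, with OE+Cy above ZIP+Cy and Scr+Cy and no overlap with either. For ZIP+Cy the share of all genes without such overlap was not counted. The level of Oasl1 in OE+Cy overlapped that in ZIP+Cy. Scr+Cy and ZIP+Cy were neighbours in the order for every member and overlapped in every one. The OE+Cy comparisons share their treated OE libraries, so they are not independent of one another.

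Untreated levels differed between lines in another way. OE was not higher than Scr for any member, beside 11.3% of all genes called higher, and was lower for 4, beside 14.4% called lower. Ifit3b held 0.917, 1.64, 1.53 and 1.15 CPM in Scr and 0.212, 0.163, 0.193 and 0.229 CPM in OE, a log2 fold change of −2.70 (SE 0.63, adjusted p = 9.76e-04 in edgeR) that rests on 6 to 7 reads a library in OE. Oasl1 was lower by −0.96 (SE 0.22), Ifit2 by −0.73 (SE 0.22) and Ifit3 by −1.65 (SE 0.75, adjusted p = 0.0723). The Ifit3 call was lost without Scr library 3 (−1.34) or without OE library 1 (−1.42), 2 (−1.59) or 3 (−1.74). Isg15 lay below every Scr library in all 4 OE libraries (log2 −1.63, SE 0.87, adjusted p = 0.126 in edgeR) but was not called. Leaving out the untreated ZIP library numbered 4, which belongs to neither group but enters the shared estimate of the spread, it was called, with the same fold change (adjusted p = 0.0406 in edgeR), and DESeq2 called it on all libraries (adjusted p = 0.00687).

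In ZIP, 1 member was higher than in Scr, beside 7.97% of all genes, and 2 were lower, beside 6.91%. Ifit2 gave 11.5, 11.7, 14.3 and 18.1 CPM in ZIP, all below the lowest Scr library at 19.2 (log2 −0.79, SE 0.23, adjusted p = 0.00967 in edgeR). Rsad2 was lower by −0.74 (adjusted p = 0.0637) and Isg15 higher by 1.45 (adjusted p = 0.0556). With the replicate number as a block their adjusted p values were 0.0293 and 0.0226 in edgeR. Both turned on the ZIP library numbered 4. Isg15 measured 0.549, 0.62, 0.806 and 3.29 CPM in the 4 ZIP libraries, and without the last its log2 fold change was 0.45, and it was not called (adjusted p = 0.577 in edgeR). Rsad2 measured 2.52, 1.82, 2.33 and 7.66 CPM, and without the last it was −1.43 (adjusted p = 3.17e-05). Its call was lost without Scr library 3 (−0.54) or ZIP library 1 (−0.61), 2 (−0.53) or 3 (−0.56), and when only the groups compared were fitted (−0.74, adjusted p = 0.177 in edgeR). Ifit1 (log2 1.02, adjusted p = 0.142 in edgeR) was not called, but with the replicate number as a block it was (adjusted p = 0.0708). DESeq2 also called Ifit1 (adjusted p = 0.0729). Its edgeR value was 1.73 without Scr library 3 and 0.37 without ZIP library 4 (adjusted p = 0.664 in edgeR). Without ZIP library 4, Oasl2 went from 0.65 to −0.46 and Ifit3 from 0.45 to −0.61, neither of them called.

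**Figure D3:**
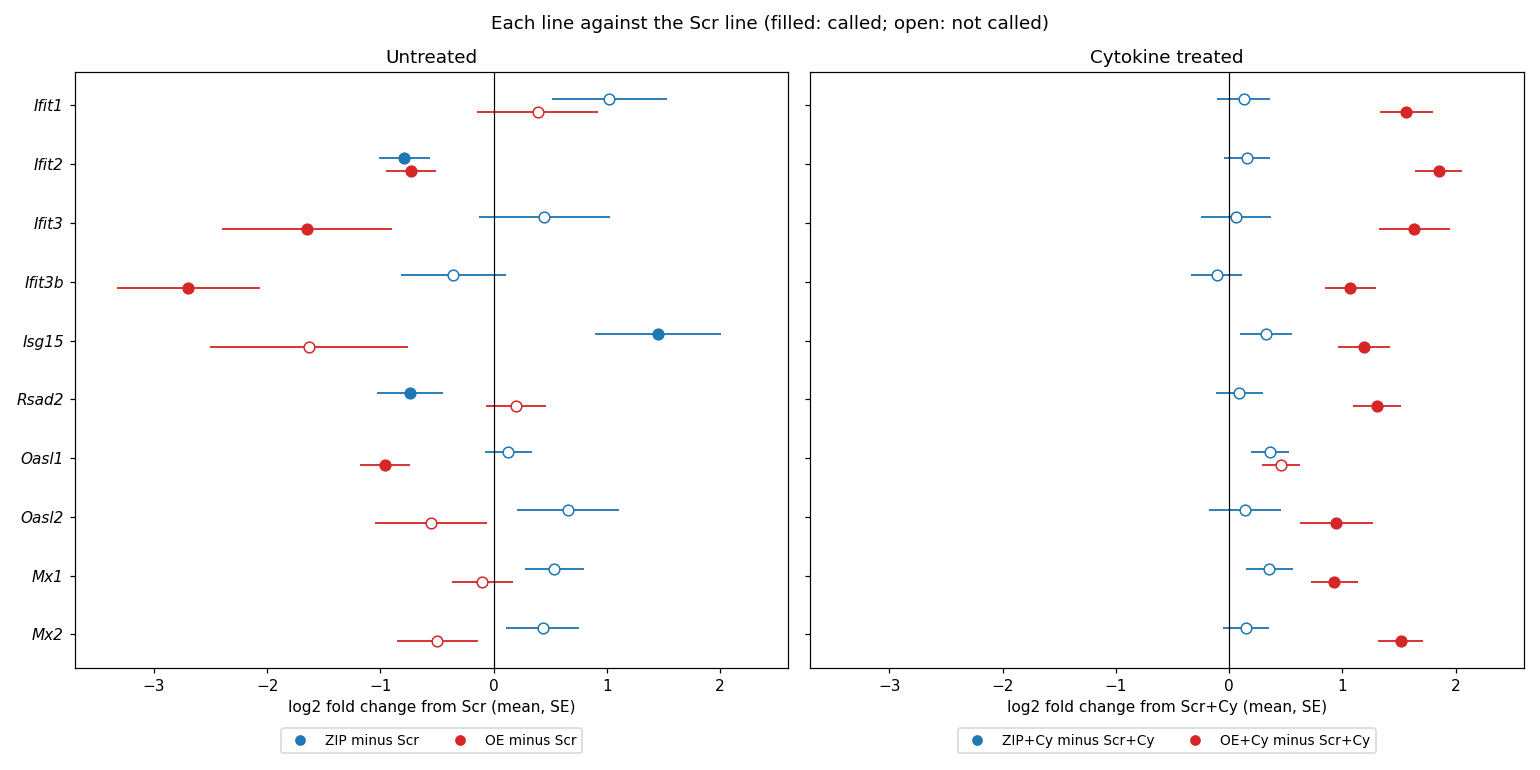
Log2 fold change of each member in the ZIP and OE lines against Scr, untreated (left) and cytokine treated (right), with bars of 1 SE from the edgeR fit; filled points were called. Untreated OE is below Scr for 8 members (4 called), whereas treated OE is above for all 10 (9 called), and treated ZIP stays between −0.11 and 0.36.

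The ZIP library numbered 4 was examined across members. It was the highest ZIP library in 8 of 10 members and lower than the mean of the other 3 in Mx1 and Oasl1. The share of all genes highest in it was not counted, and members measured in the same library are not independent. Oasl2 held 2.09, 2.12, 2.94 and 13.6 CPM in the 4 libraries, so that the fourth was 5.70 times the mean of the others. The ratio was 5.31 for Ifit3, 5.00 for Isg15, 3.44 for Rsad2 and 3.27 for Ifit1. Set against the rise from those 3 libraries to ZIP+Cy, the excess was 2.40% for Ifit1, 3.53% for Ifit2, 3.74% for Ifit3, 2.25% for Ifit3b, 3.90% for Isg15, 2.93% for Rsad2 and 2.62% for Oasl2. It was 7.30% for Mx2, and Mx1 (−9.26%) and Oasl1 (−8.43%) lay below the other 3 libraries. Other cytokine-responsive lists gave median excesses between 2.38% (5 nucleic acid sensors) and 3.16% (9 NF-κB response genes), each over listed genes that rose at least 4-fold, with single genes between −8.90% and 12.2%. The leukocyte markers summed to 1.55 CPM in this library, within the range of the other ZIP libraries.

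**Figure D4:**
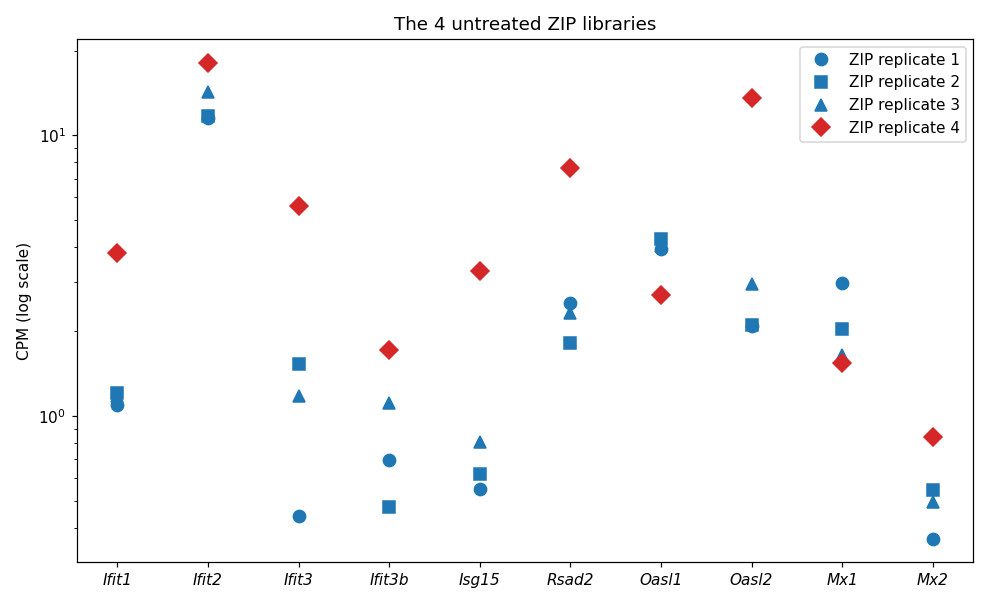
CPM of each member in the 4 untreated ZIP libraries, on a log axis. The fourth library (red) stands above the other 3 for 8 members and at the bottom for Mx1 and Oasl1.

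Among treated libraries the one numbered 1 was usually the lowest. It held the lowest level of 9 members among the Scr+Cy libraries, 10 among the ZIP+Cy libraries and 8 among the OE+Cy libraries. The share of all genes lowest in that library was not counted, and members measured in the same libraries are not independent. The level of library 1 relative to the mean of the other 3 had a median of 0.594 for Scr+Cy, 0.642 for ZIP+Cy and 0.819 for OE+Cy. The libraries numbered 1 also held the highest fibroblast sum of their group in 5 of the 6 groups, among them ZIP+Cy at 5.41 CPM, whereas in OE+Cy library 1 it was 0.799 CPM. The part of that in the members' levels was not tested. Leaving out all 6 libraries numbered 1, an alternative chosen after the levels were seen, 9 of 10 members were still higher in OE+Cy than in Scr+Cy and 0 differed between ZIP+Cy and Scr+Cy.

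The size of the cytokine response was compared between lines by an interaction contrast of the edgeR model, called at an adjusted p under 0.05. In OE the response exceeded that in Scr for 8 of 10 members, beside 9.64% of all genes, with a median difference of 1.76 on the log2 scale. The difference was 3.77 (SE 0.66) for Ifit3b, 3.28 (SE 0.80) for Ifit3, 2.82 (SE 0.89) for Isg15 and 2.58 (SE 0.30, adjusted p = 4.33e-06 in edgeR) for Ifit2. It was 2.01 (SE 0.41) for Mx2, 1.42 (SE 0.28) for Oasl1, 1.11 (SE 0.34) for Rsad2 and 1.03 (SE 0.34) for Mx1. Ifit1 (1.18, adjusted p = 0.181) and Oasl2 (1.5, adjusted p = 0.0763) did not pass. Without ZIP library 4, which belongs to neither line but enters the estimate of the spread, Oasl2 passed (adjusted p = 0.00459, edgeR), as it did without Scr library 1 (adjusted p = 0.0471).

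These differences combine the treated and the untreated levels of the lines. For Ifit3b the treated lines differed by 1.07 and the untreated lines by −2.70, so most of the interaction lay in the untreated level. For Oasl1 the treated difference was 0.46 and the untreated one −0.96. For Rsad2 and Mx1 nearly all of it lay in the treated level, where the lines differed by 1.31 and 0.93 and the untreated values were 0.20 and −0.10. Isg15, Mx1 and Rsad2 were not stable to leaving out 1 library. The adjusted p for Isg15 passed 0.05 without Scr library 1 (0.0518) or 3 (0.0553), or OE library 1 (0.0517) or 3 (0.0542), and for Rsad2 without Scr library 3 (0.0739). For Mx1 the same occurred without any of Scr library 1, OE library 1 or 3, Scr+Cy library 4 or OE+Cy library 3 or 4, or without all libraries numbered 1, at adjusted p values from 0.0524 to 0.139.

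In ZIP the response differed from that in Scr for 0 of 10 members in edgeR, beside 0.0565% of all genes, and DESeq2 also called 0. At an unadjusted p under 0.05 in edgeR there were 2, Ifit2 (0.94, SE 0.30, adjusted p = 0.493) and Rsad2 (0.83, SE 0.36, adjusted p = 0.73). With the replicate number as a block Ifit2 passed (adjusted p = 0.0276, edgeR), and without ZIP library 4 Rsad2 did (1.52, adjusted p = 0.018). For Isg15 the difference was −1.12 (95% interval −2.31 to 0.07), and −0.13 without ZIP library 4.

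The ligands that act upstream were nearly absent. Of 12 listed interferon ligand genes 4 were in the count table. Ifnb1 had at most 2 reads in any library. Ifnl2 and Ifnl3, which encode near-identical type III interferons, had 0 reads in all 20 libraries outside OE+Cy, and between 3 and 15.5 (Ifnl2) and between 12 and 16 (Ifnl3) in the 4 OE+Cy libraries. Against a floor of 3 reads per library these are at least 3.20-fold and 4.81-fold higher in OE+Cy than in Scr+Cy. Ifnz had at most 3 reads in any library. The IFNγ given in the medium is not measured by these libraries.

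Of the 8 receptor and kinase genes that were listed, cytokines raised 3 in the Scr line (7.88% of all genes), 4 in the ZIP line (7.28%) and 5 in the OE line (13.0%). Ifngr2, a chain of the IFNγ receptor, rose by 1.32 in Scr and by 3.02 in OE. It was the only one of the 8 called in OE+Cy against Scr+Cy (1.06, adjusted p = 1.29e-08 in edgeR), which is about the share of all genes called higher there (13.7%). Jak2, the kinase bound to that chain, rose by 0.81 in Scr, and Ifnar2, a chain of the type I receptor, by 1.01.

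Of the 7 STAT and IRF factors 6 rose in each of the 3 lines, beside 7.88% of all genes in Scr, 7.28% in ZIP and 13.0% in OE. In Scr, Irf7 rose by 5.36, Irf1 by 3.86 and Irf9 by 3.77. Between OE+Cy and Scr+Cy only Irf1 was called (0.83, adjusted p = 5.18e-08 in edgeR), which is about the share of all genes called higher there (13.7%). Irf9 differed by 0.23, which is under 1.5-fold.

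The other lists rose with the members in the control line. Their counts, here and below, stand beside 7.88% of all genes called higher with cytokines in Scr, 7.28% in ZIP and 13.0% in OE. Between OE+Cy and Scr+Cy 13.7% of all genes were called higher. All 5 genes of ISG15 conjugation and removal rose in every line. They included Ube2l6, the conjugating enzyme (5.32 in Scr), Uba7, the activating enzyme (5.14), Herc6, a ligase (3.15) and Usp18, which removes ISG15 (2.66). Usp18 (1.15) and Herc6 (0.87) were also higher in OE+Cy than in Scr+Cy, whereas Uba7 gave −0.18 and Ube2l6 0.23. Of the 7 OAS and RNase L genes, 6 rose in Scr and 6 were higher in OE+Cy than in Scr+Cy. Oas3 gave the largest difference between those groups at 2.77, followed by Oas2 at 1.54, Oas1g at 1.21 and Oas1a at 1.16. These synthetases make the oligoadenylate that activates RNase L.

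Of 27 other antiviral effectors 24 rose in Scr, and 10 were higher and 1 lower in OE+Cy than in Scr+Cy. The lower one, named after its values were seen, was Ifi27 (−0.60). The largest rises in Scr were those of Zbp1 (7.92), Ifi44 (7.74), Bst2 (6.15) and Sp100 (5.84). Of these, Bst2 (1.06) and Ifi44 (1.07) were higher in OE+Cy, and Zbp1 (0.51) and Sp100 (0.53) were not called. Of 7 nucleic acid sensors 6 rose in Scr and 4 were higher in OE+Cy, among them Ifih1 (1.31) and Tlr3 (1.48), which detect double-stranded RNA, and Dhx58 (0.76), while Ddx58 gave 0.49. The 2 other Ifit genes in the table, Ifit1bl1 and Ifit1bl2, rose by 1.79 and 2.65 in Scr, and only Ifit1bl1 was higher in OE+Cy (0.71).

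All 12 IFNγ response genes rose in every line, and 5 were higher in OE+Cy than in Scr+Cy, or 3 without the libraries numbered 1. Cxcl9, a chemokine, was higher by 2.55, whereas the guanylate-binding proteins Gbp2 (0.83, adjusted p = 0.298 in edgeR) and Gbp3 (0.67) and the immunity-related GTPase Iigp1 (1.13, adjusted p = 0.135 in edgeR) were not called. For these 3 every OE+Cy library was nonetheless above every Scr+Cy library, as for Gbp2 with 1768 to 2176 CPM against 681 to 1258 CPM. Of 10 NF-κB response genes 8 rose in Scr and 7 were higher in OE+Cy, with Nos2, the inducible nitric oxide synthase, at 4.99, Icam1 at 2.33, Ccl2 at 1.99 and Cxcl1 at 1.16. The median difference between OE+Cy and Scr+Cy was 1.25 for the 10 members, 1.16 for the OAS list, 1.39 for the NF-κB list, 0.64 for the IFNγ list and 0.34 for the STAT and IRF factors, against 0.00765 over all genes.

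**Figure D5:**
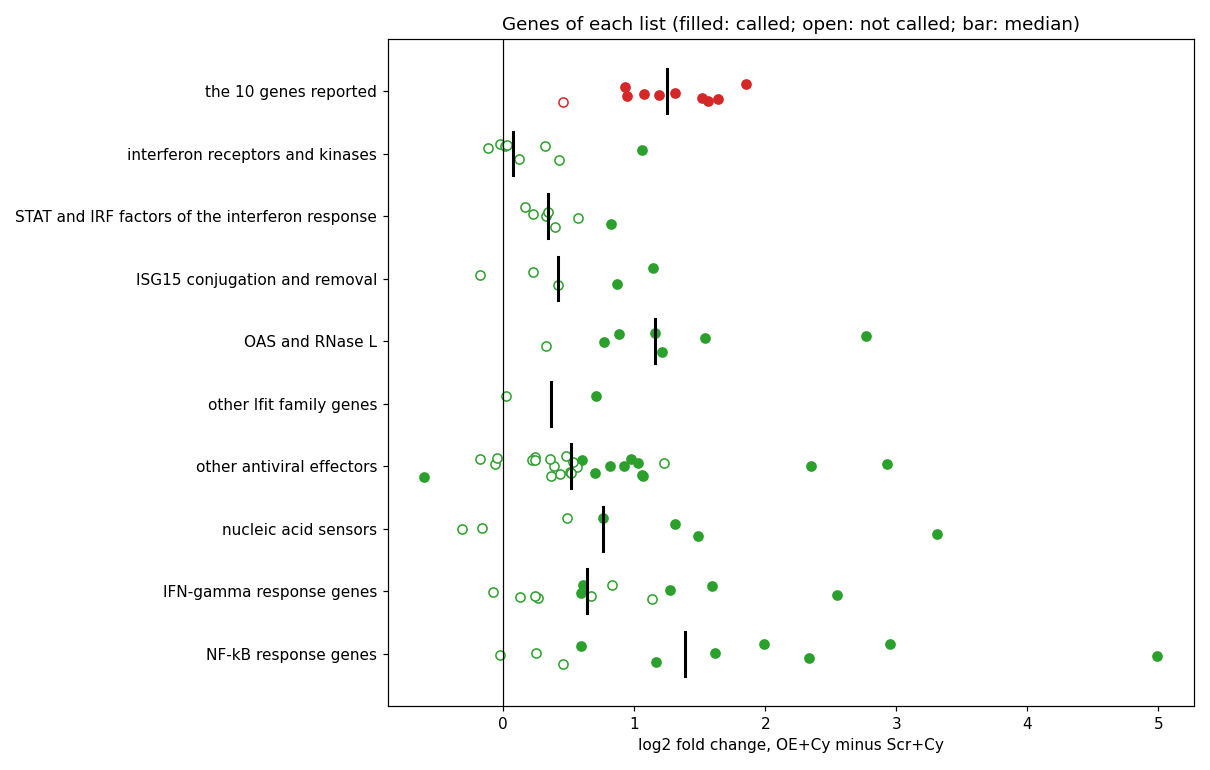
Log2 fold change between OE+Cy and Scr+Cy for the members (red) and the genes of 9 lists (green), with filled points called and a bar at each median. The members' bar is at 1.25, near those of the OAS (1.16) and NF-κB (1.39) lists, and that of the STAT and IRF factors is at 0.34.

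The genes most alike to the members were ranked by correlation with the mean of the members' standardised log2 CPM over the 24 libraries. Of 12660 other genes with a mean of at least 1 CPM, the closest were Irf1 (r = 0.997), Rnf213 (0.996), Snx10 (0.995), Csf1 (0.995) and Ripk2 (0.994). All libraries of 2 treatments enter these values, which mostly separate treated from untreated. Each member correlated with the mean of the other 9 at between 0.955 (Mx1) and 0.992 (Ifit3).

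The Ifit cluster lies in a stretch of chromosome 19 where other genes also differed between lines. Of 33 genes within 5 Mb that averaged at least 10 CPM in untreated cells, members and listed genes left out, 30 were below 0 in ZIP against Scr (median −0.40) and 28 in OE against Scr (median −0.46). The medians of all genes at that level were −0.013 and 0.0048. After treatment 31 of the 33 were below 0 in OE+Cy against Scr+Cy (median −0.67), where the 4 Ifit genes were between 1.07 and 1.85. Neighbours of the other 4 places had medians between −0.14 and 0.21 in the untreated comparisons. Whether these shifts have a part in the Ifit values was not tested.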

How the data were processed

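Bulk RNA-seq libraries of MIN6 lines were analysed in 6 groups of 4, each assigned from its own label. The authors deposited estimated counts per gene, made from reads aligned to mm10 with STAR (2.7.8a per the labels) in Partek (11.0.24.0204). Of these values 30.3% were not whole, since reads shared by genes were divided; counting strand is not given in the sources used here. A second table deposited by the authors held a normalized signal, found to be those counts over 1 factor per library, and was not tested. All 24 libraries were used, and no per-sample column was left out.

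Estimated counts were rounded to whole numbers, and every listed gene had at least 10 reads in total. A model of 6 group means was fitted in edgeR 4.0.16 (R 4.3.3) with TMM scaling and its quasi-likelihood test, after the step was tested on simulated data. A standard error is the log2 fold change divided by the square root of F, and 95% intervals are 1.96 standard errors either side. Such intervals are somewhat narrower than the test itself allows. For Ifit1 in ZIP against Scr the interval was 0.029 to 2.01, though the unadjusted p was 0.0554 in edgeR. Calls needed a 1.5-fold change and an unadjusted p under 0.05, or, for interactions, an adjusted p under 0.05. DESeq2 1.42.0 was an alternative, as were its size factors, a filter on low counts, the groups compared alone, a replicate block, summed families and leaving out each library. Libraries with the same number deviated together (every correlation over 0.1) within each line and between Scr and ZIP. The titles also give each replicate number a tag shared by all groups, whose meaning they do not explain. The model of group means leaves this pairing out. In the main results the block is given for Ifit1, Isg15 and Rsad2 in ZIP against Scr, and for Ifit2 in the response of ZIP against that of Scr. For OE and Scr it is given only among the alternatives. Between OE and Scr the correlations were 0.295, −0.129, 0.211 and 0.236 for libraries 1 to 4. Between OE+Cy and Scr+Cy they ran from 0.000631 to 0.165, so pairing of OE with Scr was uneven.

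The members and the lists were chosen with earlier results of these data known. All members are named, with up to 4 genes a list with the largest change in Scr+Cy, the interferon ligands in the table and the 5 genes most alike to the members; single values of 2 listed genes are not reported here. Levels per length use GENCODE M21 exons. Promoters and the microRNA are from RefSeq. Coordinates are those of the deposited table. The floor is 3 reads per library and, like every interval, covers counting error or library spread only.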

Additional observations from a re-analysis of the deposited data

Results flagged for a closer look

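Of 60 sets of 4 libraries (10 members in 6 groups), 8 held a library whose gap to its nearest neighbour exceeded Dixon's 95% limit for 4 values. Chance flags about 1 set in 20 where sets are independent and values normally distributed. These sets share their libraries and were taken on unlogged CPM, so 8 of 60 cannot be set against that rate. The ZIP library numbered 4 was the outlier in 4 of the 8: Ifit1 at 3.80 CPM, Isg15 at 3.29, Rsad2 at 7.66 and Oasl2 at 13.6. The Scr library numbered 3 was high for Ifit1 at 2.00 CPM and Ifit3 at 2.5 CPM. The OE library numbered 4 was high for Isg15 at 0.262 CPM, and the OE+Cy library numbered 4 for Oasl1 at 25.9 CPM.

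The cytokine response differed between OE and Scr by the interaction test for 8 members. The differences on the log2 scale were 2.58 for Ifit2, 3.28 for Ifit3, 3.77 for Ifit3b, 2.82 for Isg15, 1.03 for Mx1, 2.01 for Mx2, 1.11 for Rsad2 and 1.42 for Oasl1.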

How the results depend on the processing

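All 10 members were called higher with cytokines in each line, 9 in OE+Cy against Scr+Cy and 0 in ZIP+Cy against Scr+Cy, under each of the alternatives that keep the members apart. With families summed, Oasl1 took its family's value in OE+Cy against Scr+Cy (0.93) and was called. In ZIP against Scr, 3 members were called, 1 when the adjusted p was required and 4 with the replicate block, which added Ifit1. DESeq2 called Ifit1 there too. With a library or all libraries numbered 1 left out, 3 to 6 were called (5 without Scr library 1, 6 without all those numbered 1). The ZIP and Scr responses differed for 0 members, for 1 with the replicate block (Ifit2), for 2 at the unadjusted p and for 0 to 1 with libraries left out (Rsad2 without ZIP library 4). The OE and Scr responses differed for 6 to 9 members, OE against Scr for 3 to 5 and OE+Cy against ZIP+Cy for 7 to 9. The replicate block also brought Oasl2 under the threshold in the OE and Scr responses (adjusted p = 0.0264) and Isg15 in OE against Scr (adjusted p = 0.0639), and changed no other call beyond those given. Ifit3 in OE against Scr, called with and without the block, had an adjusted p of 0.00964 with it in edgeR. Oasl2 in OE+Cy against ZIP+Cy was lost with DESeq2 (adjusted p = 0.123) and without ZIP+Cy library 1 (adjusted p = 0.102 in edgeR). Mx1 in OE+Cy against ZIP+Cy, at 1.49-fold, crossed 1.5-fold under DESeq2 (0.59) and without some libraries.

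Some directions turned, all of them of values that had not been called in the results above, and the cause was not tested. The turned value of Ifit1 in OE against Scr with families summed (−0.77) was itself called (adjusted p = 0.013 in edgeR). With libraries left out, log2 fold changes ranged in ZIP against Scr from −0.61 to 0.77 for Ifit3 and −0.46 to 1.04 for Oasl2, and in OE against Scr from −0.27 to 0.38 for Mx1. In ZIP+Cy against Scr+Cy they ranged from −0.050 to 0.30 for Ifit1, −0.063 to 0.35 for Ifit2, −0.14 to 0.29 for Ifit3, −0.31 to 0.091 for Ifit3b, −0.019 to 0.22 for Rsad2 and −0.015 to 0.28 for Oasl2. In OE+Cy against ZIP+Cy Oasl1 ranged from −0.013 to 0.17. The ZIP minus Scr response ranged from −0.69 to 0.67 for Ifit3, −0.50 to 0.060 for Mx1 and −0.89 to 0.60 for Oasl2. With Ifit3 and Ifit3b summed, Ifit3b turned to 0.14 in ZIP against Scr, 0.017 in ZIP+Cy against Scr+Cy and −0.12 in the ZIP minus Scr response. With families summed, which replaces each member's value by its family's, Ifit1 and Ifit3 became −0.56 in ZIP against Scr and 0.66 in the ZIP minus Scr response, Ifit1 −0.77 in OE against Scr, Ifit3b 0.096 in ZIP+Cy against Scr+Cy and Oasl1 −0.26 in the ZIP minus Scr response. Low read numbers limit the untreated values most, since Isg15 and Ifit3b had 4 to 8 reads in OE.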
